A study of Mus musculus with 2 samples.

Results

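The cells described here are Cxcl9-expressing monocytes in B16-F0 melanoma, a mouse tumour grown by transplanting a cell line, measured by droplet single-cell RNA sequencing. They were 268 of the 22284 cells kept from both libraries, 55 of 11153 in the wild-type (WT) library and 213 of 11131 in the knockout (KO) library. Each was chosen by its own UMI counts, UMIs being unique molecular identifiers that mark single captured RNA molecules. A cell had at least 1000 UMIs, at least 500 genes and at most 10% mitochondrial UMIs. It held the monocyte genes Ly6c2, Ccr2 and Vcan at a sum of at least 5 per 10000 UMIs, at least 3 UMIs of the lysozyme gene Lyz2 and at least 1 UMI of Cxcl9. It held the complement genes C1qa, C1qb and C1qc at a sum below 10 per 10000, and Mmp12, Arg1, Spp1, Inhba and Thbs1 together below 10 per 10000. At most 1 UMI each of Cd3d with Cd3e, of Cd79a and of Cd209a was allowed, with none of Ncr1, Xcr1 or Clec9a. These genes chose the cells, so their values are given as a description and support nothing.

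The tumours came from mice with the genotype labels WT and KO, and each genotype was represented by 1 library. Which gene the KO mice lack is not stated in the labels, which also give no strain, age or number of mice. Living leukocytes had been sorted as CD45+ DAPI- cells, which takes every CD45+ cell, although the cell type label reads TIL-Treg. With 1 library per genotype, genotype and library cannot be told apart, and no test of KO against WT was made.

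Monocytes enter tumours from the blood and there meet interferon gamma made by T and NK cells. The interferon gamma receptor signals through the kinases JAK1 and JAK2 to targets that carry GAS elements, among them the transcription factor IRF1, which turns on further targets. Type I interferon acts through its own receptor on targets that carry ISRE elements. CXCL9 and CXCL10 are ligands of CXCR3, the receptor by which activated T cells and NK cells migrate into inflamed tissue, and Cxcl9 is known as a target mainly of interferon gamma.

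The promoters of 3 of the genes that mark these cells are shown because the results turn on interferon targets. They come from the RefSeq promoter table on GRCm38.p6, which had an entry for each of the 3 genes, and are the 250 bases before the start site. Both strands of the 300-base windows of that table, which run 50 bases further, were searched for a GAS element, spelled TTCNNNGAA, and for an ISRE, read as TTTC, 2 bases of any kind and TTTC. Capitals mark a match.
Cxcl9, chr5:92328080-92328329, minus strand: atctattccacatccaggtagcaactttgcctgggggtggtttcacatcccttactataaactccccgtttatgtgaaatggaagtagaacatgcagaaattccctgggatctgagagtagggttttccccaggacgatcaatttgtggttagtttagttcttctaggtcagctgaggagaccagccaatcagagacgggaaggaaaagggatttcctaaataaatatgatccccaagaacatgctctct
Cxcl10, chr5:92348890-92349139, minus strand: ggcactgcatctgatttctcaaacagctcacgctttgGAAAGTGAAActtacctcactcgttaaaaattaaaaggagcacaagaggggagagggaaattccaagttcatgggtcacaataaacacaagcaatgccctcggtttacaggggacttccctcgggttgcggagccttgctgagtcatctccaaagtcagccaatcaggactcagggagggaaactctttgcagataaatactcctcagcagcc
Gbp2, chr3:142620413-142620662, plus strand: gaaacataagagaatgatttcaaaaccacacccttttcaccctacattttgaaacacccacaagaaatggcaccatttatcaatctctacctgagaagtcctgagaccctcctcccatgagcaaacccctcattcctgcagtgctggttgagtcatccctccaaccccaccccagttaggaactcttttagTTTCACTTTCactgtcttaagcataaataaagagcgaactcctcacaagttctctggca
The Cxcl10 window held 1 ISRE match, on the minus strand of the printed sequence, with its first base at -213 from the start site. The Gbp2 window held 1 ISRE match at -59. No GAS match lay in any of the 3 windows, and the Cxcl9 window held neither motif in these letters. Of all 32851 windows in the table, 8.30% held the GAS letters and 3.44% the ISRE letters. A match is a description of the sequence only. In the GRCm38 gene annotation, Cxcl9 (ENSMUSG00000029417) spans 92321347 to 92328079 and Cxcl10 (ENSMUSG00000034855) 92346638 to 92348889, both on the minus strand of chromosome 5. Gbp2 (ENSMUSG00000028270), a guanylate-binding protein GTPase, lies on chromosome 3 from 142620602 to 142638008 on the plus strand. That annotated start lies before the start site of the promoter table, so the Gbp2 ISRE match at -59 falls inside the annotated gene.

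The libraries held 98438084 WT and 112544655 KO UMIs in 11432 and 11398 barcodes, with median UMIs per kept cell of 5191 and 6360. Cells of the B cell gate made up 30.5% of WT and 3.70% of KO kept cells, which moves the share of every other population. The libraries shared 42 barcodes, and 1 of the KO Cxcl9+ monocytes carried one. No doublet caller is part of the rule, and leaving out the cells with the highest doublet scores took away 3 WT and 7 KO Cxcl9+ monocytes.

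The Cxcl9+ monocytes were cells of ordinary depth. Their median was 9345 UMIs in WT, with a range of 3561 to 21081, and 8709 in KO, with a range of 1759 to 27863. The monocytes that passed every limit but held no Cxcl9 UMI, 351 WT and 517 KO cells, had medians of 9751 and 8679. The gate sum of Ly6c2, Ccr2 and Vcan had a median of 24.3 per 10000 in WT and 25.8 in KO Cxcl9+ monocytes, far from its limit in most cells. Between 5 and 6 per 10000, just inside that limit, lay 1 WT and 2 KO cells, and between 4 and 5, just outside it, 0 WT and 7 KO cells. For the C1q sum, 1 WT and 5 KO cells lay inside at 8 to 10 per 10000 and 1 and 5 outside at 10 to 12. For the Mmp12 sum the same windows held 0 WT and 5 KO cells inside and 1 and 3 outside.

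The markers given for these cells were checked first, as CPM, the UMIs of a gene per 1000000 UMIs summed over the cells of a gate. Cxcl10 stood at 1504 in WT and 2772 in KO Cxcl9+ monocytes, against 494 and 1037 in monocytes without Cxcl9. Gbp2 stood at 964 and 1457 against 199 and 374, and was detected in 87.3% and 92.5% of Cxcl9+ monocytes against 31.3% and 50.5%. Both levels were higher in the Cxcl9+ cells of each library. Chil3, a chitinase-like protein of monocytes, was at 1866 and 1665 against 1747 and 1693, so it marked monocytes with and without Cxcl9 to a like level. Vcan, the proteoglycan versican, was at 255 and 309 against 392 and 420 and was lower in the Cxcl9+ cells. Cxcl9 and Vcan are part of the rule and cannot check the label, and the choice of the other markers used these data, so no p-value is given for them. Cxcl10, Gbp2 and Chil3 stay in the counts or rankings of called genes below, where they add no support. As a description only, Cxcl10 and Gbp2 were higher in the summed Cxcl9+ cells, and Chil3 was shared with the other monocytes. Cxcl10 was not higher at every Cxcl9 count. KO cells with 1 Cxcl9 UMI held it at 573 CPM and those with 2 to 4 at 1026, against 1037 in KO monocytes without Cxcl9. In WT the same classes were at 960 and 1404 CPM against 494.

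Of the monocytes that passed the other limits, a larger share held Cxcl9 in the KO library. The share was 13.5% of 406 cells in WT (exact Clopper-Pearson 95% interval 10.4 to 17.3) and 29.2% of 730 cells in KO (25.9 to 32.6), a log2 ratio of 1.11 (0.67 to 1.56). All intervals here cover counting error only, and UMIs of 1 cell are not independent. After each cell was thinned to 3000 UMIs, the shares were 10.3% of 400 cells and 24.2% of 723, a log2 ratio of 1.24. Cells with 10 or more Cxcl9 UMIs were 5.67% and 17.0% of the gated monocytes. As a share of all kept cells the Cxcl9+ monocytes were 0.493% in WT (0.372 to 0.641) and 1.91% in KO (1.67 to 2.19), a log2 ratio of 1.96. With the B cell gate left out of the total this fell to 1.49 (1.05 to 1.94).

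**Figure D1:**
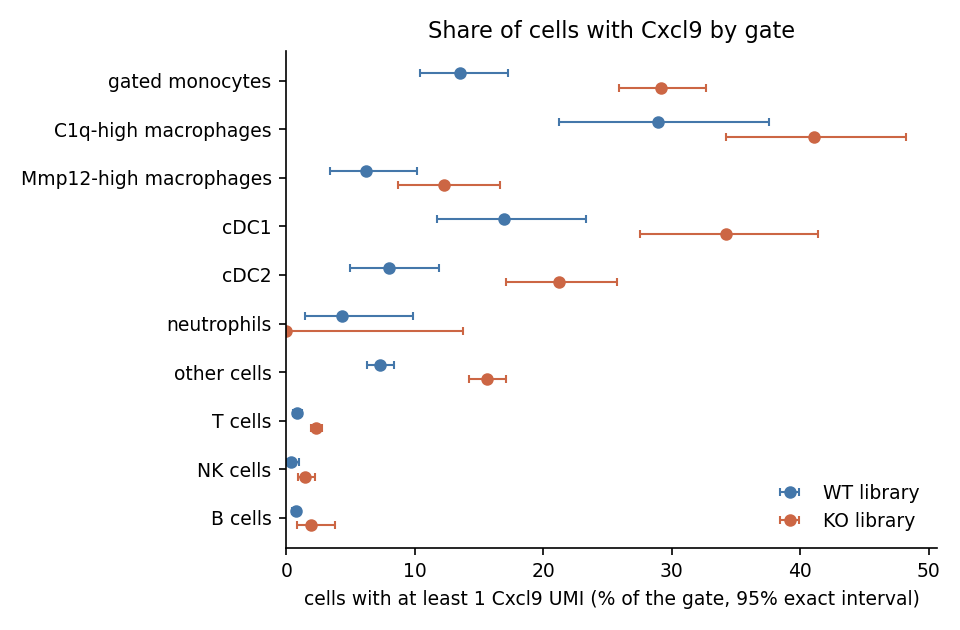
Share of cells with at least 1 Cxcl9 UMI, in percent of each gate, for the WT and KO libraries, with exact 95% intervals from counting. The KO point lies above the WT point in 9 of 10 gates, at 29.2% against 13.5% in the gated monocytes and at most 2.32% in T, NK and B cells, while in neutrophils it lies below, at 0 of 25 KO cells.

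Cxcl9 was found in other myeloid gates too. It was present in 28.9% of WT and 41.1% of KO C1q-high macrophages, in 16.9% and 34.2% of conventional type 1 dendritic cells (cDC1) and in 6.19% and 12.2% of macrophages high in Mmp12, Arg1 and Spp1. In neutrophils it was present in 5 of 115 WT cells (4.35%) and in 0 of 25 KO cells, which allows a share of up to 12%. Lymphocytes, which should lack Cxcl9, were taken as the background; the source of their Cxcl9 UMIs was not tested. The share was 0.735% and 1.94% in B cells at median depths of 3351 and 3503 UMIs, and 0.836% and 2.32% in T cells at 5939 and 5742. At 3000 UMIs these were 0.493% and 0.987% in B cells and 0.375% and 1.04% in T cells, well below the monocytes of the same library. The KO to WT log2 ratio of the share was 1.40 in B cells and 1.47 in T cells, so the KO share was higher in these gates too; its part in the monocyte value was not tested. Per cell with Cxcl9, the monocytes held a mean of 19.5 UMIs in WT and 27.2 in KO, C1q-high macrophages 19.2 and 20.1, and cDC1 23.2 and 25.1. In T cells the mean was 3.27 and 4.08, and in B cells 1.40 and 1.00.

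The 55 and 213 Cxcl9+ monocytes held 1070 and 5791 Cxcl9 UMIs, 17.2% and 29.9% of all Cxcl9 UMIs of their libraries. Cells in none of the named gates held the largest part, 45.4% and 39.1%. The rule itself set many Cxcl9 cells aside. Of 395 WT and 1013 KO cells with a Cxcl9 UMI, 61 and 167 failed only a lymphoid or dendritic limit, 27 and 60 only the C1q limit and 9 and 29 only the Mmp12 limit.

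Cxcl9 was spread very unevenly over the Cxcl9+ monocytes. The count per cell ran from 1 to 135 in WT, with a median of 7, and from 1 to 184 in KO, with a median of 15. There were 13 WT and 31 KO cells with exactly 1 UMI, 6 and 30 with 2 to 4, 13 and 28 with 5 to 9, and 23 and 124 with 10 or more. The cells with 10 or more held 89.2% of the Cxcl9 UMIs of the WT and 94.6% of those of the KO Cxcl9+ monocytes. Nearly all of the signal was thus in the cells of the top class, and the highest single cell held 12.6% in WT and 3.18% in KO. Depth was similar over these classes, with medians between 8790 and 9987 UMIs in WT and between 8170 and 9064 in KO.

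**Figure D2:**
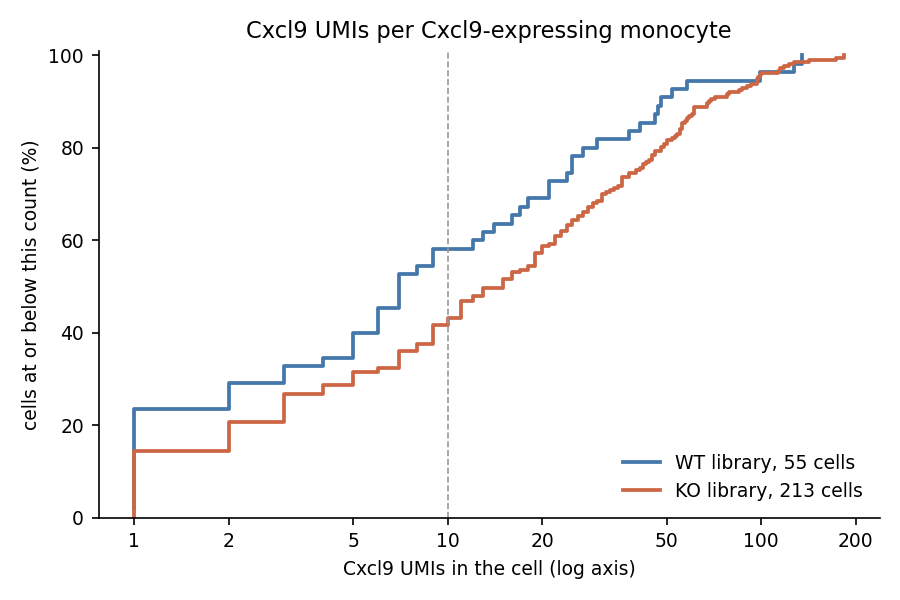
Cumulative percent of Cxcl9+ monocytes, on the y axis, at or below a given Cxcl9 UMI count per cell, on a log x axis, for 55 WT and 213 KO cells, with a dashed line at 10 UMIs. The KO curve lies to the right of the WT curve over most counts, with medians of 15 and 7.

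The interferon gamma response list went up with the Cxcl9 count. This list of GTPases, transcription factors and other targets had a summed level of 1525 CPM in WT monocytes without Cxcl9 and of 5489 CPM in WT cells with 10 or more Cxcl9 UMIs. Relative to the cells without Cxcl9, the log2 ratio of the sum was 0.60, 1.40, 1.39 and 1.85 over the 4 WT classes in order of Cxcl9 count. In KO it was 0.22, 0.86, 1.14 and 1.64. Cells with a single Cxcl9 UMI were thus nearest to the monocytes without Cxcl9 in each library. For the type I interferon list the ratios were 0.02, 0.99, 1.37 and 1.23 in WT and -0.32, 0.27, 0.33 and 0.87 in KO. Gbp2 stood at 454, 485, 651 and 1540 CPM over the WT classes and at 446, 900, 894 and 1962 CPM over the KO classes. Cd274, which encodes the checkpoint ligand PD-L1, was at 52.4, 139, 132 and 149 CPM in WT and at 108, 140, 195 and 275 in KO. The monocyte marker list stayed between -0.18 and 0.27 in all 8 classes. These classes are described without a test, and the smallest held 6 cells.

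**Figure D3:**
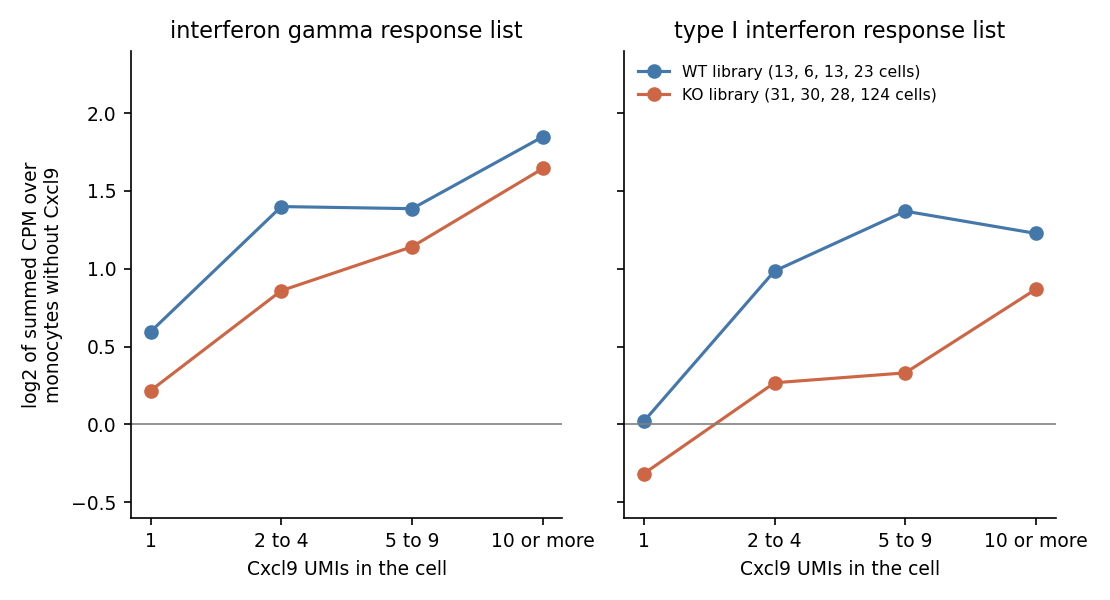
Log2 ratio of the summed CPM of the interferon gamma list (left) and the type I interferon list (right) over monocytes without Cxcl9, against the Cxcl9 UMIs in the cell, in WT and KO. The interferon gamma list is highest in cells with 10 or more UMIs, at 1.85 in WT and 1.64 in KO, and the WT classes hold 6 to 23 cells.

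The Cxcl9+ monocytes were next compared with the monocytes without Cxcl9, on UMIs summed per gate and library. Genes of interferon response and antigen presentation were higher in the Cxcl9+ cells, and of the granule list 8 of 11 tested genes were lower. Of 9123 genes tested, edgeR's quasi-likelihood test with Benjamini-Hochberg adjustment, with library as a block, called 632 higher (6.93%) and 353 lower (3.87%), with a median log2 ratio of 0.00. DESeq2 called 192 higher and 31 lower, and all of these were among edgeR's calls. The difference had the same sign in both libraries for 618 and 351 of the edgeR calls. The test rests on 2 libraries of different genotype with 1 residual degree of freedom, and with no library block it called 90 and 30. The groups were split on Cxcl9 in the same cells, so the test shows which genes go with Cxcl9 detection.

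In the interferon gamma list, 23 of 24 genes were tested and all 23 were higher by edgeR, 19 by DESeq2, with a median log2 ratio of 1.61. Gbp2 is one of the 23. Serpina3g, a protease inhibitor of the serpin family, stood at 136 CPM in WT and 167 in KO Cxcl9+ monocytes, against 9.06 and 22.8 in monocytes without Cxcl9. It was found in 38.2% and 41.8% of Cxcl9+ cells and in 5.41% and 8.32% of the others. Its log2 ratio of 3.25 (edgeR adjusted p = 5.8e-25) was the largest of the list. Gbp5, a GTPase that acts on vacuoles and inflammasomes, was at 184 and 249 CPM against 41.4 and 67.3, a log2 ratio of 2.04. Irf1 and Irf8, transcription factors of the interferon gamma response, were higher by 0.88 and 1.00 on the log2 scale. Socs1, the feedback inhibitor of JAK kinases, was at 145 and 252 CPM against 48.3 and 79.5, a ratio of 1.70. So these transcription factors and the feedback inhibitor were all higher in the cells of both libraries that held Cxcl9. Ifi47 and Igtp, immunity-related GTPases, were higher by 1.12 and 1.18, and Gbp3 and Gbp7 by 1.45 and 1.40. Reads from near-identical copies within the Gbp and Serpina3 families may be split or assigned to the wrong copy, so single members of these families are uncertain.

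Genes of interferon receptors and signalling were mixed. Of 15 tested, 5 were higher and 1 was lower by edgeR, and 3 and 1 by DESeq2, with a median of 0.17. Over all genes tested, edgeR called 6.93% higher and 3.87% lower. Ifngr1, the ligand-binding chain of the interferon gamma receptor, was the lower one. It stood at 228 CPM in WT and 115 in KO Cxcl9+ monocytes, against 349 and 262, a log2 ratio of -0.87 (edgeR adjusted p = 6.4e-09). Ifngr2, the other chain, was at 129 and 145 against 144 and 130, and did not pass the test (edgeR adjusted p = 0.77).

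Type I interferon targets were higher as well. Of the 25 listed genes 23 were tested, 20 were higher by edgeR and 14 by DESeq2, and none was lower, with a median of 0.85. The median was 1.29 within the WT library and 0.57 within the KO library, a difference that was not tested. Isg15, a ubiquitin-like modifier, was at 760 and 721 CPM against 317 and 437, a log2 ratio of 1.03 (edgeR adjusted p = 1.1e-16). Rsad2, the antiviral enzyme viperin, was at 186 and 397 CPM against 63.7 and 182, a ratio of 1.33. Irf7, the transcription factor that amplifies type I interferon, was at 386 and 377 against 157 and 257, a ratio of 0.93. Each was higher in the Cxcl9+ cells of both libraries. Ifit2, an RNA-binding antiviral protein, had the list's largest ratio, 1.53.

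Antigen presentation genes were higher by less. In the class I list 13 of 15 genes were higher by edgeR and 12 by DESeq2, with a median of 0.82. Psme2, an activator subunit of the proteasome, was at 683 and 740 CPM against 316 and 431, a ratio of 0.99, and the immunoproteasome subunit Psmb8 at 1229 and 1270 against 674 and 819, a ratio of 0.80. The peptide transporter Tap1 was higher by 0.92 and the class I light chain B2m by 0.63. In the class II list 7 of 8 were higher by edgeR and 6 by DESeq2, with a median of 0.60. H2-Aa stood at 2265 and 2051 CPM against 1281 and 1600, a ratio of 0.64. Cd74, the invariant chain, was at 6012 and 5181 against 3459 and 4306, a ratio of 0.59. H2-DMb2, a peptide exchange subunit, did not pass, at 5.51 and 26.0 CPM against 11.5 and 24.4.

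**Figure D4:**
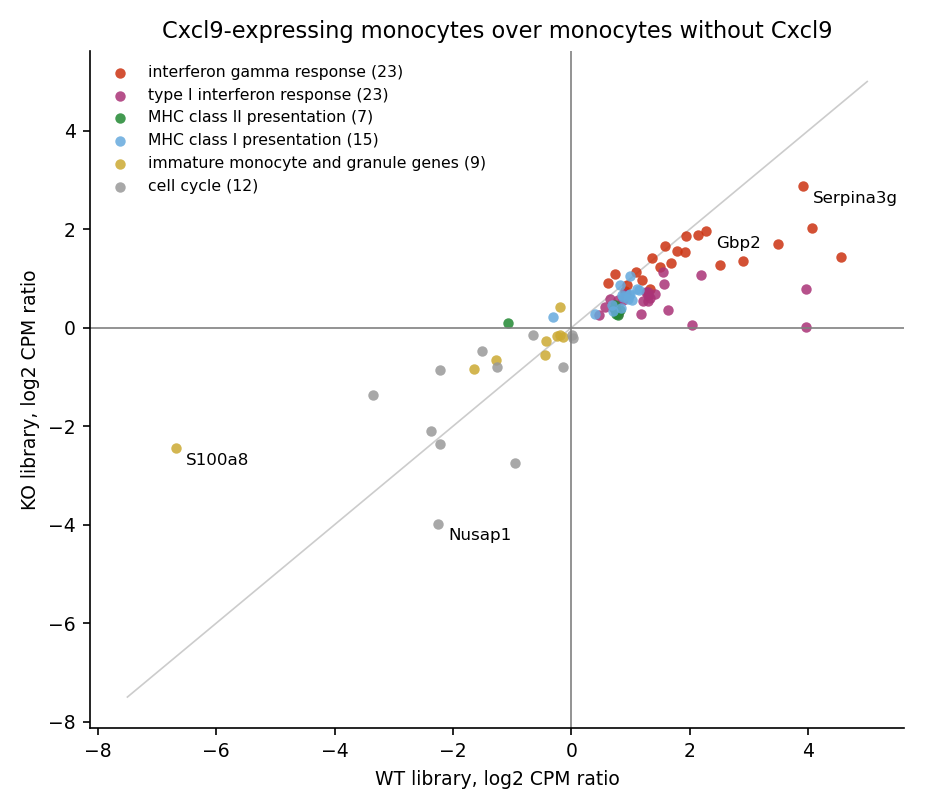
Log2 CPM ratio of Cxcl9+ monocytes over monocytes without Cxcl9 for genes of 6 lists, WT on the x axis and KO on the y axis, with the line of equal ratios. Genes at 0 UMIs in any of the 4 sums and gate genes are left out, a gene of more than 1 list is shown once, and the interferon gamma genes lie above 0 in both libraries.

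Among secreted chemokines the Cxcl9+ monocytes had a split pattern. Of 14 tested chemokine genes 7 were higher and 4 lower by edgeR, and 5 and 1 by DESeq2, with a median of 0.42; the count includes the marker Cxcl10. Cxcl16, a ligand of CXCR6, was at 77.1 and 110 CPM against 23.6 and 37.3, a ratio of 1.67. Ccl12 and Ccl7, which attract monocytes through CCR2, were higher by 1.53 and 0.74, and Ccl2 by 0.40. Cxcl2, a neutrophil attractant that binds CXCR2, was at 1012 and 526 CPM against 1421 and 945, a ratio of -0.61 (edgeR adjusted p = 9.8e-12). Cxcl1, of the same receptor, was at 0 in Cxcl9+ monocytes of both libraries and at 30.5 and 8.28 CPM in the others. Thus the CXCR2 ligands named here were lower and the CCR2 ligands higher where Cxcl9 was present. Ccl5, a chemokine of activated leukocytes, was higher by 0.74 by edgeR, but 1 cell held 45.5% of its UMIs in WT and 44.3% in KO, and DESeq2 did not call it (adjusted p = 0.91).

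Checkpoint and costimulatory ligands were mixed, with 5 of 13 higher and 1 lower by edgeR and 3 and 0 by DESeq2. Cd274 stood at 123 CPM in WT and 222 in KO Cxcl9+ monocytes against 35.7 and 75.6, a ratio of 1.69 (edgeR adjusted p = 8.6e-16), and was detected in 45.5% and 57.7% of these cells against 17.7% and 29.8%. Pdcd1lg2, which encodes PD-L2, had the largest ratio, 1.85, but at low counts. Cd86, a ligand of CD28, was higher by 0.86. Vsir, the checkpoint molecule VISTA, was lower by edgeR at 134 and 115 against 188 and 167 CPM, a ratio of -0.46, and was not called by DESeq2.

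Of 11 tested cytokines 7 were higher by edgeR and 1 by DESeq2. Il1rn, the interleukin-1 receptor antagonist, stood at 147 and 258 CPM against 73.0 and 119, a ratio of 1.15, while Il1b itself was at 626 and 757 against 456 and 705, a ratio of 0.32. Il18bp, the soluble inhibitor of interleukin-18, had the largest ratio, 1.58. Both inhibitors are known antagonists of interleukin-1 family cytokines. Nos2, the inducible nitric oxide synthase, had a ratio of 3.25, but it was found in only 1.82% of WT and 1.88% of KO Cxcl9+ cells. Ptgs2, the prostaglandin-forming enzyme COX-2, was at 105 and 212 CPM against 76.3 and 121, a ratio of 0.76.

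Several Fc receptor genes and sensors of cell death were higher. Of 10 tested genes of Fc receptors and the phagocyte oxidase 6 were higher by edgeR and 3 by DESeq2. Fcgr4, an activating IgG receptor, was at 156 and 249 CPM against 54.1 and 79.5, a ratio of 1.67, while the oxidase subunit Cybb was at 946 and 837 against 876 and 930 and did not pass. Of 12 genes of apoptosis and nucleic acid sensing 8 were higher by edgeR and 5 by DESeq2. Zbp1, a sensor of Z-form nucleic acid, stood at 582 and 694 CPM against 231 and 368, a ratio of 1.16 (edgeR adjusted p = 2.3e-18). Fas, the death receptor, had the largest ratio, 1.41, and the survival factor Mcl1 was at 946 and 1032 against 890 and 1109 and did not pass. Among glycolysis and hypoxia genes 10 of 16 were higher by edgeR but only 2 by DESeq2, with Pfkp, a phosphofructokinase, highest at a ratio of 1.02.

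Monocyte markers outside the rule were mixed. Of 14 such markers 4 were higher and 4 lower by edgeR, and 4 and 3 by DESeq2, with a median of -0.05. Plac8, a small protein abundant in inflammatory monocytes, stood at 4335 and 3976 CPM against 3309 and 3156, a ratio of 0.42, and Ms4a4c was higher by 0.55. F13a1, the coagulation factor XIII A chain, was at 255 and 244 against 459 and 452, a ratio of -0.81 (edgeR adjusted p = 9.3e-11). Hp, which encodes haptoglobin, was at 154 and 191 against 481 and 341, a ratio of -1.08. The macrophage maturation list had a median of -0.06, which was 0.22 within the WT library and -0.23 within the KO library. Of its 19 tested genes 6 were higher and 1 lower by edgeR, and DESeq2 called 2 and 1. The lower one was Cx3cr1, the fractalkine receptor, at 69.8 and 32.0 CPM against 145 and 116, a ratio of -1.47 (edgeR adjusted p = 1.8e-10). The transcription factor Maf was higher by 0.79 and the receptor tyrosine kinase Axl by 1.26. Nr4a1, a nuclear receptor needed by patrolling monocytes, was at 127 and 60.9 against 200 and 146, a ratio of -0.94.

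Most tested granule genes and some cell cycle genes were lower by edgeR. Of 11 tested genes of the immature monocyte and granule list 8 were lower by edgeR and 3 by DESeq2, and none was higher. Of 18 cell cycle genes 8 were lower by edgeR and 0 by DESeq2, all at low counts, and the list median went from -1.36 to 0.25 when cells were thinned to 3000 UMIs. Stmn1, a microtubule regulator, was at 3.67 and 7.49 CPM against 18.9 and 31.9, a ratio of -2.06. The alarmins S100a8 and S100a9 were at 7.35 and 5.51 CPM in WT Cxcl9+ monocytes against 754 and 1025 in WT monocytes without Cxcl9. In KO they were at 6.49 and 0 against 35.4 and 92.8. A single WT cell without Cxcl9 held 41.9% and 42.0% of the UMIs of these genes in its group. The neutrophil list as a whole was at 121 CPM in WT and 94.4 in KO Cxcl9+ monocytes, with 6 and 7 of its 10 genes above 0 and the defining genes Ly6g and Retnlg at 0, against 2092 and 274 in the others. When cells with 20 or more UMIs of S100a8 and S100a9, or of haemoglobin or mature dendritic cell genes, were left out, S100a8 was at a ratio of 0.09 and S100a9 at -1.01, and neither passed. That removed 1 WT and 2 KO Cxcl9+ monocytes and 12 and 1 of the others. The test then called 525 genes higher and 312 lower. Since S100a8 and S100a9 helped choose the cells left out, a smaller difference in them follows from that choice.

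By the rule of largest difference, the genes highest in the Cxcl9+ cells beside Serpina3g, Gbp2, Gbp5 and those of the families above were Ccr7, Edn1, Sectm1a, Serpina3f, Gbp2b, Cnn3 and Iigp1. Sectm1a, a ligand of immune cells, was at 27.6 and 30.0 CPM against 2.47 and 4.56, a ratio of 3.00. Cnn3, an actin-binding calponin, was at 90.0 and 175 against 21.7 and 46.0, a ratio of 2.03. Cnn3 was spread over cells, with 16.3% of its WT and 3.99% of its KO UMIs in the highest cell. Ccr7, the chemokine receptor of migrating dendritic cells, differed: 1 cell held 66.7% of its UMIs in WT and 75.6% in KO. For Edn1, the vasoconstrictor endothelin, 1 cell held 90.0% and 47.4%. Hpgd, which breaks down prostaglandins, was among the lowest, at 18.4 and 20.5 CPM against 77.4 and 76.0, a ratio of -1.87 (edgeR adjusted p = 3.7e-11). The other genes named as lowest by the rule were Prtn3, Ldlrad3, Hist1h2ap, Map3k20, Csrp2 and Hist1h2bc, with ratios from -2.48 to -1.48.

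RNA of other cell types was low in the Cxcl9+ monocytes with 1 large exception. The B cell list in WT and the dendritic cell list in both libraries were still above their levels in monocytes without Cxcl9. The T cell list was at 49.6 CPM in WT and 64.9 in KO against 46.4 and 62.3 in monocytes without Cxcl9, and the B cell list at 224 and 86.4 against 125 and 94.9. The dendritic cell list was at 171 and 274 against 127 and 139, with 6 and 10 of 12 genes above 0. All 44 KO UMIs of Fscn1, a marker of mature dendritic cells, were in 1 cell. Melanoma genes were at 31.2 and 17.5 CPM, and mast cell and basophil genes at 0. The exception was haemoglobin, since the erythroid list stood at 4173 CPM in WT and 4.99 in KO, and 1 WT cell held at least 98.7% of the UMIs of Hba-a1, Hba-a2 and Hbb-bs. The part of these RNAs in the other results was not tested, beyond the values without those cells given above.

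Against C1q-high macrophages, 128 WT and 202 KO cells, the Cxcl9+ monocytes differed in many more genes. The C1q genes chose both gates, and the Ly6c2, Ccr2 and Vcan sum chose the monocytes. Of 8998 genes edgeR called 1542 higher (17.1%) and 1366 lower (15.2%), and DESeq2 509 and 284. The interferon gamma list was again higher, 22 of 23 genes by edgeR and 19 by DESeq2, with a median of 1.90, and so was the type I list, 22 of 23 and 18, with a median of 1.69. Isg15 stood at 760 and 721 CPM against 274 and 248, a ratio of 1.65 (edgeR adjusted p = 1.1e-14). So the called genes of both lists were higher in Cxcl9+ monocytes than in this macrophage gate. By the rule every Cxcl9+ monocyte held Cxcl9, but only 28.9% and 41.1% of the macrophages did, and those were not compared apart. The type I list summed to 4346 CPM in WT and 5292 in KO Cxcl9+ monocytes, and to 1769 and 1706 in C1q-high macrophages. It was also above the C1q-high level in monocytes without Cxcl9, at 2077 and 3480, and in macrophages high in Mmp12, at 2285 and 3915. Monocyte markers were higher for 12 of 14 and lower for 1, with Plac8 at 4335 and 3976 CPM against 946 and 979, and Ifitm6, a membrane protein of the interferon-induced family, at 305 and 307 against 31.9 and 47.1. In the macrophage maturation list 18 of 21 were lower and 2 higher. The mannose receptor Mrc1 was at 90.0 and 65.4 CPM against 822 and 640, a ratio of -3.11, and Ccl8, a chemokine of resident macrophages, at 1.84 and 4.49 against 927 and 1012. All 20 tested cell cycle genes were lower by edgeR and 18 by DESeq2, Top2a being at 7.35 and 3.50 CPM against 81.3 and 105. Of the 8 class II genes 3 were higher and 1 lower, and Cd74 did not pass at a ratio of 0.15. By the rule of largest difference Serpinb2, Edn1, Nrg1, Chil3, Trim30b, Hp, Upp1, Tspan13 and Hdc were also among the highest, and Gas6, Fcrls, Pf4, Cbr2, Serpinb6a, Tns1, Pmp22, Ube2c and Stab1 among the lowest.

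Within the Cxcl9+ monocytes, KO and WT were compared by size alone. Of 7293 genes with at least 20 UMIs over both libraries, 264 were higher (3.62%) and 232 lower (3.18%) in KO by at least 1.5-fold with an interval that excluded 1, and the median log2 ratio was 0.01. These are counts over 2 libraries and not tests. In monocytes without Cxcl9 the same rule gave 320 and 425 of 9734 genes. Cxcl9 is a gene of the rule, so it is left out of these counts and its value is a description only. It was 0.56 higher on the log2 scale in KO (0.46 to 0.65) among the cells that had it. That interval covers counting error only, and 1 cell held 12.6% of these Cxcl9 UMIs in WT and 3.18% in KO. Cxcl10 was higher by 0.88 (0.78 to 0.99) and by 1.07 in monocytes without Cxcl9, and Gbp2 by 0.60 (0.46 to 0.73) and 0.91.

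In the interferon gamma list 8 of 23 genes were past the size rule in KO Cxcl9+ monocytes and none was lower, with a median of 0.52. In monocytes without Cxcl9 it was 19 of 23 and a median of 0.91. For the type I list it was 2 higher and 1 lower of 23 and a median of 0.11 in Cxcl9+ monocytes, and 17 higher with a median of 0.73 in the others. The KO to WT ratios of both lists were thus smaller in the cells with Cxcl9. The rule chose these cells in both libraries by Cxcl9, itself an interferon target. A smaller ratio therefore cannot be told apart from that choice, and whether the ratios differ was not tested. Isg15 was at 760 CPM in WT and 721 in KO Cxcl9+ monocytes against 317 and 437 without Cxcl9, ratios of -0.08 (-0.24 to 0.08) and 0.46. Socs1 was 0.80 higher in KO (0.45 to 1.16), Cd274 0.85 (0.48 to 1.24) and Rsad2 1.10 (0.80 to 1.41). Of the class I and class II genes 2 of 15 and 1 of 8 passed the size rule, all higher, with medians of 0.09 and -0.02. Over all genes measured, 3.62% were higher by this rule.

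The genes with the largest KO excess were interferon targets that were nearly absent in WT. Gbp2b, a guanylate-binding GTPase, was at 9.18 CPM in WT and 299 in KO Cxcl9+ monocytes, a log2 ratio of 5.03 (3.79 to 6.65), and it was found in 5.45% and 48.8% of the cells. Ifi44 was at 12.9 and 148 CPM, a ratio of 3.52 (2.46 to 4.85). Its neighbour in family, Ifi44l, had 0 UMIs in WT and 116 in KO. With 3 UMIs as the WT floor its log2 ratio was 3.39, and its interval began at 3.07. All 3 genes lie on chromosome 3, Gbp2b from 142594847, Ifi44 from 151730922 and Ifi44l from 151758737. The same 3 genes were low in WT monocytes without Cxcl9, at 0.549, 0.823 and 0 CPM, against 73.1, 85.7 and 24.0 in KO. Outside monocytes, T cells held Gbp2b at 1.17 CPM in WT and 11.6 in KO and Ifi44 at 1.25 and 5.72. So the low WT level of Gbp2b and Ifi44 was not limited to Cxcl9+ monocytes. Genotype, library and any other difference between the mice cannot be told apart for these genes. Iigp1, another GTPase of the interferon gamma response, was at 36.7 and 160 CPM, a ratio of 2.13 (1.47 to 2.86), and at 2.21 in monocytes without Cxcl9.

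Other genes higher in KO were of other kinds. Hspa1a, an inducible heat shock protein, was at 79.0 CPM in WT and 295 in KO, a ratio of 1.90 (1.45 to 2.38), and 1.35 in monocytes without Cxcl9. Its near-identical copy Hspa1b had 87.5% of its WT UMIs in 1 cell, and reads of the pair cannot be assigned with certainty. Ifitm1 was 2.15 higher with 41.9% of the KO UMIs in 1 cell, and lower in monocytes without Cxcl9, at a ratio of -1.30. Cxcr4, a homing receptor, was at 7.35 and 49.9 CPM. The dendritic cell chemokines Ccl17 and Ccl22 passed the rule, but 1 KO cell held 99.0% and 62.8% of their UMIs.

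Some genes of macrophage maturation were lower in KO Cxcl9+ monocytes. In that list 7 of 18 were lower and 1 higher, with a median of -0.51, which was 0.11 among cells with 10 or more Cxcl9 UMIs, against 4 and 1 and a median of -0.15 in monocytes without Cxcl9. The lysosomal protease Ctsd was at 279 CPM in WT and 121 in KO, a ratio of -1.21 (-1.51 to -0.91), and -0.25 without Cxcl9. Lgmn, the protease legumain, was at 276 and 158, a ratio of -0.80. Both ratios were further from 0 in the cells with Cxcl9 than in those without, a difference that was not tested. The others that were lower were Adgre1, Trem2, Ctsl, Pf4 and Cx3cr1, named after their values were seen. Outside the list, Cd93, a receptor of the complement-linked lectin family, was at 80.8 and 24.5 CPM, a ratio of -1.72 (-2.34 to -1.10), and Tmem176b at 173 and 76.9. Cxcl2 was at 1012 and 526, a ratio of -0.94 (-1.09 to -0.79), but at -0.58 with 2 or more Cxcl9 UMIs and -0.26 with 10 or more, under the size rule. Ifngr1 was at 228 and 115, a ratio of -0.99 (-1.31 to -0.66). Dab2, an endocytic adaptor, was at a ratio of -1.40, with 30.5% of the WT UMIs in 1 cell, and at -0.01 with 10 or more Cxcl9 UMIs. Ccl24 was at -1.40 with 48.5% of the WT UMIs in 1 cell, and at 2.04 with 10 or more Cxcl9 UMIs. Lima1 was at -1.77 but at 0.07 after thinning to 3000 UMIs. Igfbp6, Arl11 and Lamtor3 were at -1.67, -1.71 and -1.28; after thinning they were at -0.93, -2.30 and -1.13 and did not pass the size rule. Cd93 was at -0.71 with 10 or more Cxcl9 UMIs and did not pass there.

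**Figure D5:**
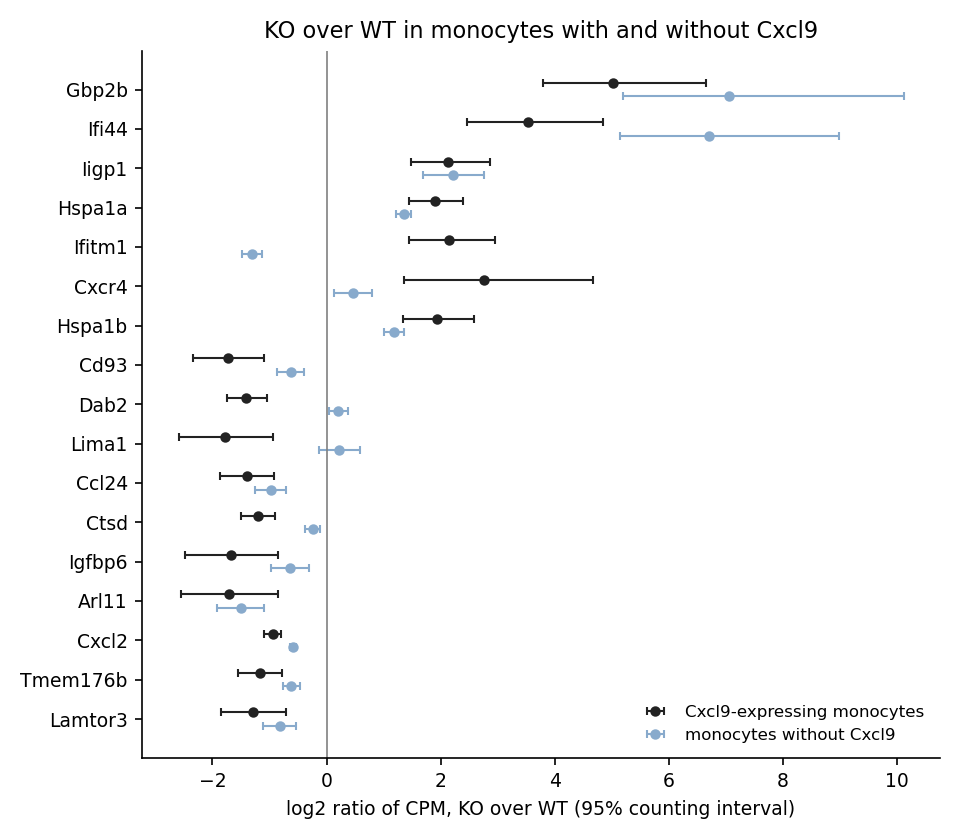
Log2 CPM ratio of KO over WT, with 95% counting intervals, for the genes named by the size rule that had WT UMIs, in Cxcl9+ monocytes (black) and monocytes without Cxcl9 (blue). Gbp2b and Ifi44 lie far to the right in both, at 5.03 and 3.52 in the Cxcl9+ cells, while Ifitm1, Dab2 and Lima1 lie on opposite sides of 0.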

How the data were processed

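The authors deposited whole-number UMI counts per gene and cell barcode, with no normalization, for 1 WT and 1 KO library of the 10x 3' v3.1 chemistry, per the labels. Per the submitters' processing notes the tools were Cell Ranger and STAR with the mm10 build; version 5.0.0 of Cell Ranger stands in the matrix headers. Which gene models were counted was not stated. The assay sees molecules by their 3' ends. Cells were gated on these counts with fixed limits. The members and the gene lists, 375 of whose 378 genes are among the 32285 features, were chosen with earlier results of these data known. UMIs were summed per library and gate and tested with edgeR 4.0.16 (TMM, filterByExpr, quasi-likelihood, library as a block, Benjamini-Hochberg threshold 0.05), with DESeq2 1.42.0 as the alternative, in R 4.3.3. The edgeR script was tested on simulated data. KO and WT were set side by side as log2 CPM ratios with exact conditional binomial 95% intervals, with a floor of 3 UMIs for a library at 0. Scrublet in scanpy 1.11.5 called too few KO cells to be used as a caller, so removing the expected share of highest scores was an alternative. Named genes were those past the threshold with at least 50 UMIs and 20 CPM, the 10 each way with the largest ratio in the library where it was smaller (for KO against WT, the interval bound nearest 0), plus the given markers and, of each list, the extremes and genes of at least 200 CPM. Genes of a list at 5 or fewer calls were named after their values were seen. Values of some single genes of the lists are not reported here.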

Additional observations from a re-analysis of the deposited data

Results flagged for a closer look

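For 3 genes of the lists the difference between Cxcl9+ monocytes and monocytes without Cxcl9 ran in opposite directions in the WT and KO libraries, each with an interval that excluded 0; the difference between the libraries was not tested. Pf4, a platelet-type chemokine that macrophages also make, had a log2 ratio of 0.90 in WT and -2.92 in KO. It rested on 17 UMIs in WT Cxcl9+ monocytes, 52.9% of them in 1 cell, and on 5 UMIs in KO. Hmox1, the haem-degrading enzyme, had -1.59 in WT and 0.32 in KO, where 1 cell held 41.5% of its UMIs. Lgmn, the lysosomal protease legumain, had 0.36 in WT and -0.23 in KO, at 276 and 158 CPM in the Cxcl9+ cells against 215 and 185 in the others.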

How the results depend on the processing

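The larger KO share of Cxcl9+ monocytes kept its direction under each alternative run. Its log2 ratio was 1.49 without the B cell gate and, at 10 or more Cxcl9 UMIs, 2.43 of kept cells and 1.58 of gated monocytes. Counts of genes depended on the test. Against monocytes without Cxcl9, 192 were higher and 31 lower by DESeq2, 283 and 117 after thinning to 3000 UMIs, and 90 and 30 with no library block. Against C1q-high macrophages DESeq2 called 509 and 284. For KO against WT, 154 were lower at a minimum of 50 UMIs, and thinning left 120 higher and 119 lower, with fewer UMIs in each sum. Some list medians and single genes changed sign. Against monocytes without Cxcl9 these were macrophage maturation, at 0.12 by DESeq2, 0.22 without the KO library and -0.23 without the WT library, cell cycle, from -1.36 to 0.25 after thinning, and chemokines, from 0.42 to -0.12 with 10 or more Cxcl9 UMIs. Against C1q-high macrophages class II was at -0.17 without the WT library and 0.20 without the KO library. For KO against WT, with 10 or more Cxcl9 UMIs, class II was at 0.18, class I at -0.04, macrophage maturation at 0.11 (from -0.51), monocyte markers at -0.05, cell cycle at -0.15 and Ccl24 at 2.04 (from -1.40). At 2 or more, cell cycle was at -0.11. After thinning, class I was at -0.01, cell cycle at -0.17, Ccl22 at -0.93 and Lima1 at 0.07. Without the highest doublet scores, class II was at 0.05 and monocyte markers and granule genes at -0.01 each. Without cells standing apart in neutrophil, haemoglobin or mature dendritic cell genes, S100a8 was at 0.09 and Ccl22 at -0.29. Both genes helped choose the cells left out, and the main Ccl22 cell was among them. Beyond these, the cause was not tested. The limit of 10 UMIs, the single libraries and the cells standing apart were chosen after seeing the data. Leaving out 1 library leaves no residual degrees of freedom and so no test. No paired analysis was possible because each genotype has 1 library with no replicate number. Genes under 20 UMIs summed over both libraries were left out of the KO against WT counts. With 55 WT cells, some named genes still rest on few WT UMIs, such as 5 for Gbp2b and 7 for Ifi44.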
